A study of Mus musculus with 92 samples.

Results

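Microglia respond to extracellular nucleotides, and 8 genes of their purinergic receptors, a related receptor and a nucleotide-degrading enzyme were followed here: P2ry12, P2ry13, P2ry6, P2ry14, P2rx4, P2rx7, Gpr34 and Entpd1. They were chosen by name, as the rows of the normalized expression table whose gene symbol equals one of these names. All 8 were found among 29956 named genes. Messenger RNA was sequenced in bulk from 92 mouse libraries that fall into 25 groups. The study asked how closely ER-Hoxb8 cells, which are macrophage progenitors held in a dividing state by an estrogen-regulated Hoxb8, resemble primary marrow cells and microglia, and what loss of Adar1 and the JAK inhibitor baricitinib do to their macrophages.

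The groups differ in source, genotype and treatment, and every mouse donor was FVB. Wild-type bone marrow gave lineage-depleted progenitors, enriched monocytes and BMD macrophages, which are marrow cells cultured for 7 days with CSF1 (3 libraries each). ER-Hoxb8 cells heterozygous for Cas9 were taken as progenitors, after 4 days and as macrophages after 7 days (3 libraries each, from 3 lines made independently). Donor cells recovered from brain are called microglia-like cells (MLCs): wild-type marrow cells (BMD MLCs, 6 libraries) and wild-type ER-Hoxb8 cells (ER-Hoxb8 MLCs, 6 libraries) were injected into the brains of Csf1r-/- pups aged 0 to 5 days, hosts that lack their own microglia, and were sorted 12 to 16 days later. Microglia came from uninjected wild-type mice described in the study as matched in age (9 libraries). The study shows GFP-expressing donor cells in its transplants, and whether every MLC library came from such cells is not in the titles. Titles of ER-Hoxb8 macrophages in vitro name a Cas9 mouse and those of ER-Hoxb8 MLCs do not, so genotype and place cannot be told apart between them. The ER-Hoxb8 MLC columns carry the names GFPHox (replicates 1 to 3) and WTHox with the ending Lo (replicates 4 to 6), microglia columns 8 and 9 carry the name YSWT, and BMD macrophage replicate 3 is named wBM where the others are named Mac. The labels do not explain these names.

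The Adar1 groups are Cas9-heterozygous ER-Hoxb8 cells transduced with a guide against Adar (sgRNA 1 or sgRNA 2) or a non-targeting control (NTC) and sorted as pools, not clones. Progenitors were sequenced in 3 libraries for each guide, and macrophages in 3 for sgRNA 1, 3 for NTC and 5 for sgRNA 2. NTC progenitor columns carry the name NTC2Prog, NTC macrophage replicates 1 and 3 the name NTC, and replicate 2 the name NTC2-2-Redo. What separates these names is not in the labels. For the drug series, sgRNA 1 macrophages (Adar1 KO) and NTC macrophages were grown for 7 days with 0, 0.0006, 0.016, 0.4 or 10 uM baricitinib, by the doses in the sample titles, in 3 or 4 libraries each. The treatment protocol gives 0.00064 uM where the titles have 0.0006 and 0.16 uM where they have 0.016, so the dose called 0.016 uM here is uncertain. The drug series is described as independently differentiated replicates of the same cells, so a p-value there measures spread between cultures. Differences between the transduced cell pools and loss of Adar1 cannot be told apart there. For the other Adar1 and NTC groups the labels do not say what a replicate is, so a p-value there measures spread between samples that may be technical.

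Nucleotides leave stressed or active cells and act on neighbours through P2Y receptors, which couple to G proteins, and P2X receptors, which are ion channels opened by ATP. In microglia, P2ry12 senses ADP and steers processes toward injury, P2ry6 senses UDP and promotes phagocytosis, and P2rx7 links high ATP to the inflammasome. Entpd1 encodes CD39, the surface enzyme that degrades ATP and ADP and so sets how much ligand the receptors meet.

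The values are the deposited log2 CPM (counts scaled to the size of the library), in which a gene with no count has the lowest value of the table column. These lowest values sort the libraries into 6 sets, each normalized on its own, and levels were compared only within a set. The marrow and early ER-Hoxb8 set (12 libraries) has a lowest value of -4.34, the brain set with both 7-day macrophages (27) -3.62, the sgRNA 1 and NTC set (11) -3.43, the sgRNA 2 set (8) -3.56 and the baricitinib set (33) -2.78. NTC macrophage replicate 2 stands alone at -3.09 and was left out of the fits. The files hold no counts; if the lowest value stands for a prior count of 2, the mean depth was 40.6 M, 24.5 M, 21.5 M, 17.1 M, 23.6 M and 13.7 M reads for sets of 12, 27, 11, 1, 8 and 33 libraries. A gene was called when its adjusted p from limma over all genes tested was under 0.05 and its log2 difference was at least 2 in either direction. In bulk RNA, fewer cells of a type and less RNA per cell cannot be told apart.

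Several libraries stood apart from their groups. ER-Hoxb8 progenitor replicate 2 was most like a 4-day library (Pearson r 0.9844 over genes) and less like its own group (median r 0.8673), with a summed microglial marker level of 2265 CPM against 343 and 167 in the other 2. ER-Hoxb8 macrophage replicate 3 had 610 CPM over the same markers, where the other 2 had 2905 and 3174. Adar1 KO at 0.4 uM replicate 2 had 17401 CPM over 8 interferon-stimulated genes, where the other 2 had 9.34 and 55.7, and its nearest library was from 0.016 uM (r 0.9467). Microglia replicate 8 had the fewest genes above the lowest value in its set (12900), and it had 274 CPM over 4 astrocyte genes, led by Slc1a2 at 261. ER-Hoxb8 MLC replicate 6 had 10986 CPM over 4 monocyte genes, led by Plac8 at 4243, and 951 CPM over 9 microglial genes. Results that rest on one of these libraries are given with and without it.

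The labels were checked on marker genes outside the 8. The 9 microglial markers summed to 32907 to 80606 CPM in microglia, 8829 to 23034 in BMD MLCs, 951 to 14875 in ER-Hoxb8 MLCs, 2151 to 5764 in BMD macrophages and 610 to 3174 in ER-Hoxb8 macrophages. Sall1, a defining microglial factor, was at 8.31 to 8.91 log2 CPM in microglia and at -1.26 to 0.79 in BMD MLCs and -0.38 to 2.66 in ER-Hoxb8 MLCs, so both MLC groups lacked most of it. Genes of other cells were read too. All 6 neutrophil genes were above the lowest value in every MLC and microglia library and summed to 4096 to 31817 CPM in BMD MLCs, 230 to 40449 in ER-Hoxb8 MLCs and 404 to 5761 in microglia, against at most 69 in the cultured macrophages of that set; Ngp was at 10.84 to 13.90 log2 CPM in BMD MLCs. Genes of border-associated macrophages summed to 2795 to 5482 CPM in BMD MLCs, 809 to 1853 in ER-Hoxb8 MLCs and 24.4 to 201 in microglia. In that order, monocyte genes summed to 195 to 536, 136 to 10986 and 21.5 to 112 CPM. Proliferation genes summed to 27.6 to 111, 102 to 638 and 6.57 to 50.1 CPM, and oligodendrocyte genes to 18.6 to 97.2, 49.8 to 169 and 25.9 to 632. In the same order of groups the highest sums were 5114, 4099 and 7684 for macrophage genes, 110, 44.7 and 108 for progenitor genes, 12.9, 368 and 9.19 for lymphocyte genes, 28.4, 99.9 and 69.8 for endothelial genes, 5.15, 8.46 and 39.8 for neuronal genes and 219, 427 and 98.2 for genes raised by dissociation. Adar RNA was not lower in sgRNA 1 progenitors (4.23 to 4.36 log2 CPM) than in NTC progenitors (3.42 to 4.28), nor in sgRNA 1 macrophages (6.96 to 7.15) than in NTC macrophages (5.67 and 5.73), and since a guide leaves small edits that may spare the transcript, these levels do not check the knockout.

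P2ry12, P2ry13 and P2ry14 lie side by side on chromosome 3 inside the span of Med12l, and in brain P2ry12 and P2ry13 moved together while P2ry14 did not, so the window around each start is printed from RefSeq (GRCm38.p6, 250 bases before and 50 after the start, all on the minus strand). The windows are chr3:59262936-59263235 for P2ry12, chr3:59210833-59211132 for P2ry13 and chr3:59153443-59153742 for the outermost of 4 P2ry14 starts. Capitals mark matches on either strand to 2 motifs of myeloid and interferon factors, GAGGAA and AANNGAAA.
P2ry12: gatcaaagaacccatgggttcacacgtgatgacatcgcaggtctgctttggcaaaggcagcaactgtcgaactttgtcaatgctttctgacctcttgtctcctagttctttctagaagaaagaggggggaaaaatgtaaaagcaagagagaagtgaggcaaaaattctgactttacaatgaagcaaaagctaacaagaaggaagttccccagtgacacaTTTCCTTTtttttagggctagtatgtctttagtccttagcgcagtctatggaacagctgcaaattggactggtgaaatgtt
P2ry13: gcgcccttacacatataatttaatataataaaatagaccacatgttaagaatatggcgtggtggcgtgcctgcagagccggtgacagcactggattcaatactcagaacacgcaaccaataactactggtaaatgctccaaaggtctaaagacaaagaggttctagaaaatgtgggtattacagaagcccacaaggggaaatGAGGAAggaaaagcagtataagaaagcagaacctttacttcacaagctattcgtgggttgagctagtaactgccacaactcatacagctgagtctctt
P2ry14: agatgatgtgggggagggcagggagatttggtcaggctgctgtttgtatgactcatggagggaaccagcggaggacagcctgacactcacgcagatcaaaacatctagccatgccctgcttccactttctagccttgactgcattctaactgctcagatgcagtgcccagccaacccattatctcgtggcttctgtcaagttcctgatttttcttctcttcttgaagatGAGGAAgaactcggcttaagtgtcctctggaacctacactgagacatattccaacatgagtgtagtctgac

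GAGGAA, a pattern of sites bound by PU.1, occurred 48 bases before the P2ry13 start (position -48) and at -21 in the P2ry14 window, and not in the P2ry12 window. Shorter or other forms of such sites, such as the GGAA in the P2ry12 window, were not searched. The longer GAGGAAGT, which contains GAGGAA, was in none of these 3 windows. P2ry12 held AANNGAAA, a pattern of interferon regulatory factor sites, at -31 on the opposite strand, where it reads TTTCCTTT. Among 32851 mouse promoter windows of the same length, 28.3% held GAGGAA, 3.2% GAGGAAGT and 23.9% AANNGAAA. Over the 11 windows of the 6 members with a window in the promoter file (P2ry12, P2ry13, P2ry14, P2rx4, P2rx7 and Entpd1), GAGGAAGT was found only at the second P2rx7 start. These matches describe letters and are not evidence of binding.

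P2ry12, the ADP receptor that marks resting microglia, spanned most of the measured range. In microglia its log2 CPM was 14.03 at the lowest, 14.41 at the median and 14.84 at the highest, and in BMD MLCs 8.11, 10.72 and 11.39. ER-Hoxb8 MLCs had 4.76, 7.19 and 10.57. BMD macrophages had 0.45, -1.60 and 3.31 and ER-Hoxb8 macrophages -1.30, -1.88 and -3.09. Every MLC library was above every cultured macrophage library and below every microglia library, while the MLC groups overlapped each other. P2ry12 was higher by 9.50 ± 0.98 (SE) in BMD MLCs than in BMD macrophages (adjusted p 1.06e-07) and by 9.90 ± 0.98 in ER-Hoxb8 MLCs than in their cultured macrophages (adjusted p 2.28e-08). Against microglia, the log2 difference was -4.16 ± 0.73 in BMD MLCs (adjusted p 0.000113) and -6.57 ± 0.73 in ER-Hoxb8 MLCs (adjusted p 5.58e-08). These tests share libraries, so their sizes are not independent.

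Within ER-Hoxb8 MLCs, P2ry12 split by column name. The GFPHox libraries had 10.57, 10.57 and 7.40 and the WTHox libraries 6.99, 6.59 and 4.76, so every GFPHox value was above every WTHox value. Neutrophil genes split by the same names, at 737, 230 and 315 CPM in GFPHox and 17626, 40449 and 3258 CPM in WTHox libraries. The 9 microglial markers also split, at 14875, 10923 and 8336 CPM in GFPHox and 7036, 7393 and 951 CPM in WTHox libraries. The difference between ER-Hoxb8 and BMD MLCs was -2.41 ± 0.80 (adjusted p 0.0405), and P2ry12 was the 1 member called there, beside 6.56% of genes. With GFPHox libraries alone it was -0.71 (adjusted p 0.641) and with WTHox libraries alone -4.11 (adjusted p 0.000634), and the P2ry12 call was also lost with no filter (adjusted p 0.114) and with a replicate block (0.0633). It was also no longer called without any 1 of BMD MLC replicates 3 to 6 or ER-Hoxb8 MLC replicates 3 to 6, with adjusted p from 0.0696 to 0.111 and a difference of -1.80 without ER-Hoxb8 MLC replicate 6. What distinguishes the libraries is not in the labels, and neither its part nor that of the neutrophil genes was tested.

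P2ry13 is the other Gi-coupled ADP receptor of the cluster. Its log2 CPM was 11.23, 12.62 and 12.98 (lowest, median, highest) in microglia, 9.63, 10.52 and 10.96 in BMD MLCs and 7.66, 8.92 and 10.87 in ER-Hoxb8 MLCs. BMD macrophages had 4.48, 2.84 and 4.58, and ER-Hoxb8 macrophages 5.28, 4.42 and -2.41. All 12 MLC libraries lay between the cultured macrophages and microglia with no overlap on either side. P2ry13 was higher in brain than in culture, with a difference of 6.43 ± 0.97 for marrow cells (adjusted p 2.41e-05) and 6.67 ± 0.97 for ER-Hoxb8 cells (adjusted p 1.03e-05). Without ER-Hoxb8 macrophage replicate 3, whose P2ry13 was -2.41, the latter was 4.25 (adjusted p 1.62e-05). Below microglia, ER-Hoxb8 MLCs differed by -3.32 ± 0.72 (adjusted p 0.000702), or -2.40 with GFPHox libraries alone (adjusted p 0.0557). The BMD MLC difference of -2.03 ± 0.72 (adjusted p 0.0466) sat at the threshold: leaving out any 1 of the 15 libraries other than microglia replicate 8 gave adjusted p from 0.0548 to 0.103 and differences from -1.88 to -2.14.

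Gpr34, a receptor for lysophosphatidylserine grouped by sequence with the P2Y family, was likewise highest in microglia. Microglia had 12.50, 12.83 and 14.03 (lowest, median, highest), BMD MLCs 9.21, 10.99 and 11.67, and ER-Hoxb8 MLCs 5.26, 9.28 and 10.11. BMD macrophages had 3.58, 0.89 and 3.13, and ER-Hoxb8 macrophages 7.23, 6.32 and 2.15. Here ER-Hoxb8 MLC replicate 6 at 5.26 lay among the ER-Hoxb8 macrophages, while every BMD MLC library was above every BMD macrophage library. Gpr34 was higher by 8.13 ± 0.91 in BMD MLCs than in their macrophages (adjusted p 3.52e-07) and by 3.47 ± 0.91 in ER-Hoxb8 MLCs than in theirs (adjusted p 0.00465). Without ER-Hoxb8 macrophage replicate 3 the latter was 1.93 (adjusted p 0.0994). Gpr34 was lower than in microglia by limma in both, at -2.39 ± 0.68 (adjusted p 0.0111) and -4.35 ± 0.68 (adjusted p 1.2e-05).

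The brain change of ER-Hoxb8 cells minus that of marrow cells was tested directly. Gpr34 was the 1 of 8 members called, at -4.65 ± 1.28 (adjusted p 0.0427), where 2.48% of genes were called. The call was lost without any 1 of 10 libraries: BMD macrophage replicates 2 (-3.83) and 3 (-4.95), ER-Hoxb8 macrophage replicates 1 (-3.66) and 2 (-4.11), BMD MLC replicates 3 (-4.45), 4 (-4.57), 5 (-4.58) and 6 (-4.59), and ER-Hoxb8 MLC replicates 3 (-4.57) and 5 (-4.68). Adjusted p for Gpr34 was then 0.0536 to 0.15, and it was 0.109 with no filter, 0.0569 with a replicate block and 0.052 with GFPHox libraries alone (-3.88). For P2ry12 the same difference was 0.40 ± 1.38 (adjusted p 0.937) and for P2ry13 0.24 ± 1.37 (adjusted p 0.967), intervals too wide to call the changes alike. Without ER-Hoxb8 macrophage replicate 3 the P2ry13 value turned to -2.18 ± 0.80 (adjusted p 0.204).

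P2ry14, which senses UDP-glucose, ran opposite to its neighbours. Microglia had -3.62, -0.42 and 1.07 (lowest, median, highest), with 3 of 9 libraries at the lowest value, against 2.76, 3.52 and 4.07 in BMD MLCs and 3.51, 4.36 and 5.79 in ER-Hoxb8 MLCs. BMD macrophages had 2.48, 3.00 and 1.22 and ER-Hoxb8 macrophages 3.28, 3.00 and 1.61. Microglia were thus below every MLC and every cultured macrophage library, whereas BMD MLCs overlapped the macrophages and every ER-Hoxb8 MLC library was above them. The log2 difference from microglia was 4.67 ± 0.69 in BMD MLCs (adjusted p 1.21e-05; 2.90 with log2(CPM + 1)) and 5.78 ± 0.69 in ER-Hoxb8 MLCs (adjusted p 2.17e-07). Against cultured macrophages it was 1.21 ± 0.93 (adjusted p 0.338) and 1.92 ± 0.93 (adjusted p 0.109), neither passing. The interferon-stimulated genes, listed here because P2ry14 was high where they were high in the knockout below, summed to 8.45 to 41.9 CPM in microglia, 49 to 128 in BMD MLCs and 804 to 3010 in ER-Hoxb8 MLCs. They summed to 24.5 to 75.2 CPM in BMD macrophages and 39.6 to 72.3 in ER-Hoxb8 macrophages, whose P2ry14 was also above microglia. ER-Hoxb8 progenitors, in another set, had P2ry14 above every marrow progenitor. Their sums were 29.1, 52.8 and 12.6 CPM against 35 to 51.6 in marrow progenitors. The part of the interferon-stimulated genes in these differences was not tested.

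Of the ATP-gated channels, P2rx4 was lowest in microglia. Its values there were 3.71, 5.88 and 6.32 (lowest, median, highest), with 6.92, 7.90 and 8.08 in BMD MLCs and 6.41, 7.08 and 7.54 in ER-Hoxb8 MLCs. Cultured BMD macrophages had 7.94, 9.33 and 7.39 and ER-Hoxb8 macrophages 8.46, 8.33 and 7.75. Every microglia library was below every library of the other groups. P2rx4 was called between BMD MLCs and microglia (2.25 ± 0.34, adjusted p 1.43e-05) and was under the fold limit between ER-Hoxb8 MLCs and microglia (1.48 ± 0.34, adjusted p 0.00112). P2rx7 spanned less, from 6.30 to 8.07 in microglia, 7.55 to 8.07 in BMD MLCs, 5.65 to 7.82 in ER-Hoxb8 MLCs and 5.65 to 6.45 in cultured macrophages. It was higher in BMD MLCs than in BMD macrophages by 1.45 ± 0.37 (adjusted p 0.00436), under the fold limit, and lower in ER-Hoxb8 than in BMD MLCs by limma (-0.94 ± 0.30, adjusted p 0.0345).

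P2ry6 was called in no brain comparison and Entpd1 in 1. P2ry6 was at 5.78, 8.30 and 8.95 (lowest, median, highest) in microglia, 6.91 to 8.54 in BMD MLCs, 6.65 to 8.40 in ER-Hoxb8 MLCs and 5.45 to 8.16 in cultured macrophages, groups that all overlapped. No P2ry6 test in these groups gave an adjusted p below 0.317. Entpd1 was at 8.28, 10.59 and 10.87 in microglia, 8.29, 8.99 and 9.39 in BMD MLCs and 7.49, 8.69 and 10.10 in ER-Hoxb8 MLCs. BMD macrophages had 7.33, 8.65 and 3.32, with a low replicate 3, and ER-Hoxb8 macrophages 7.64, 7.49 and 6.55. All groups overlapped except ER-Hoxb8 macrophages with BMD MLCs and with microglia. Entpd1 was called between BMD MLCs and BMD macrophages (2.48 ± 0.77, adjusted p 0.0157), and without that replicate the difference was 0.92 (adjusted p 0.339).

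**Figure D1:**
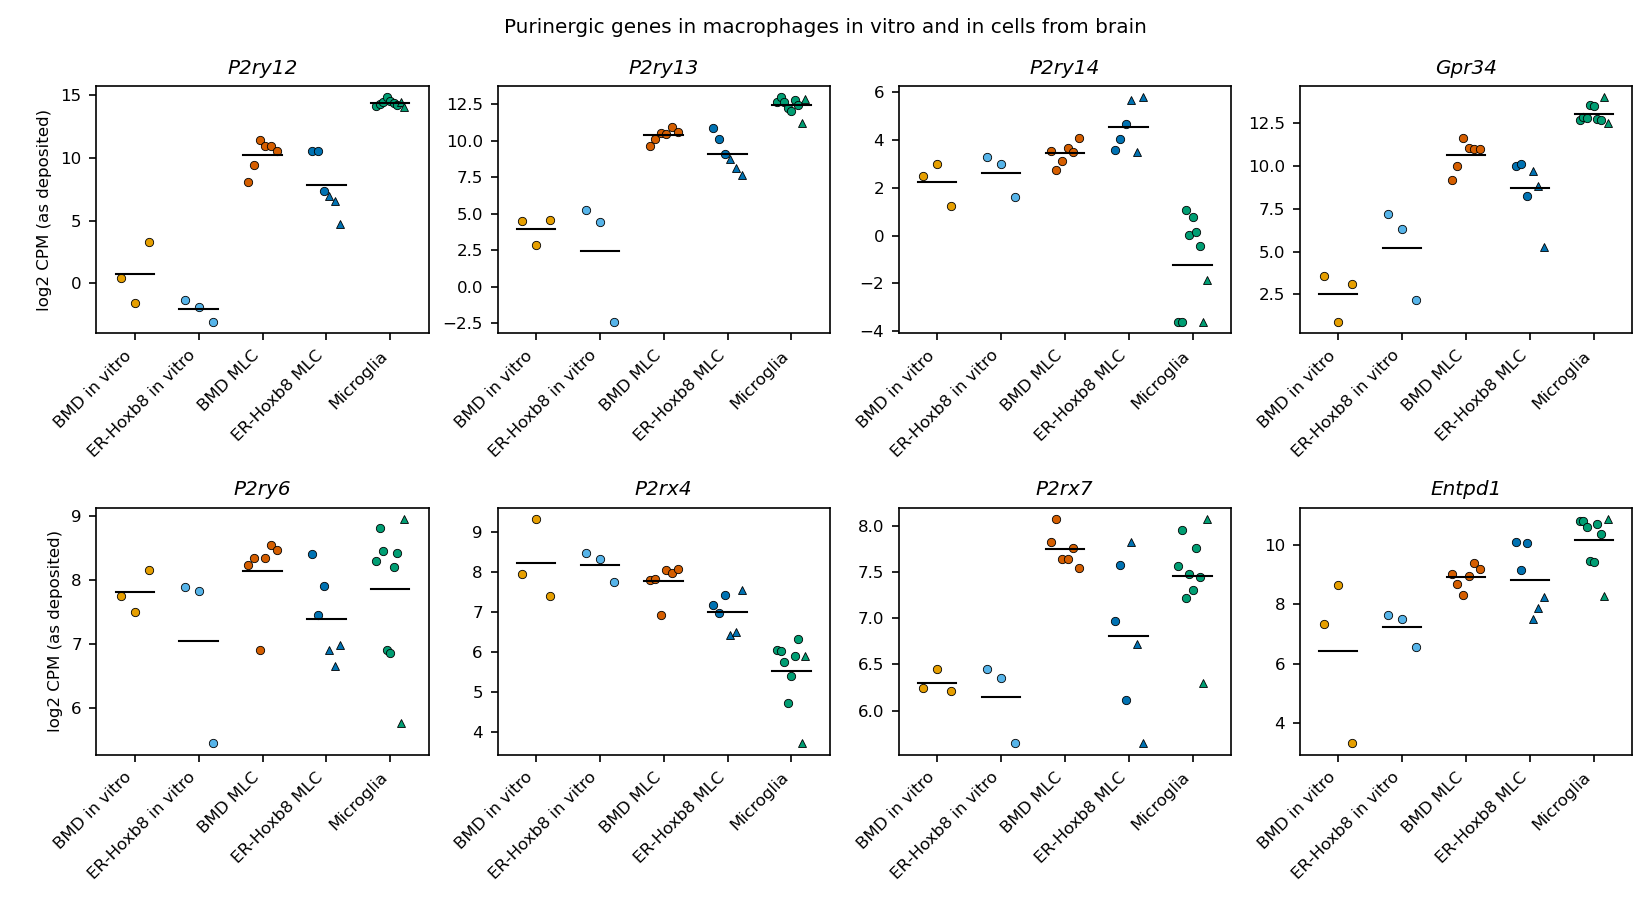
Log2 CPM as deposited (vertical axes, each with its own range) of the 8 genes in each of 27 libraries, by group; a point is a library, a bar the group mean, and triangles mark WTHox and YSWT libraries. For P2ry12, microglia sit between 14.03 and 14.84 and the MLC libraries between 4.76 and 11.39, above all cultured macrophages.

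Counted over the 8, 4 members were called between BMD MLCs and BMD macrophages, all higher in brain (P2ry12, P2ry13, Gpr34 and Entpd1), where 15.9% of 12518 genes were called, and the median log2 difference was 1.96 for the members and -0.01 for all genes. Between ER-Hoxb8 MLCs and ER-Hoxb8 macrophages 3 were called, all higher (P2ry12, P2ry13 and Gpr34), beside 19.3% of genes, with medians of 1.75 and -0.15. Against microglia, BMD MLCs had 5 members called, 2 higher (P2ry14 and P2rx4) and 3 lower (P2ry12, P2ry13 and Gpr34), beside 10.7% of genes. Quantile normalization left 3 of these, with Gpr34 at -1.87 (adjusted p 0.03) and P2ry13 at -1.65 (adjusted p 0.0742). ER-Hoxb8 MLCs had 4, with P2ry14 higher and P2ry12, P2ry13 and Gpr34 lower, beside 16.3%. The microglia comparisons share the same 9 libraries. The share of members called was above the share of all genes in these 4 comparisons, and the list was not tested as a set because its genes were chosen with such results known.

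Between both kinds of cultured macrophage, limma called 0 of the 7 members tested and 0 passed at an unadjusted p under 0.05, where 1.47% of 10764 genes were called. P2ry12 was not tested there, since it was above 1 CPM in too few libraries. Gpr34 was 3.58, 0.89 and 3.13 in BMD macrophages and 7.23, 6.32 and 2.15 in ER-Hoxb8 macrophages, groups that overlapped only through ER-Hoxb8 replicate 3 (difference 2.70 ± 1.36, adjusted p 0.483). These 3 against 3 libraries leave wide errors, such as 1.91 for P2ry13, so a lack of calls does not show equal levels.

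Other purinergic genes, with some receptors related to them by sequence (among them Gpr82, Gpr171, Gpr174 and Lpar6), were read from a list of 38, of which 37 are in the table and 22 were tested in the brain set. In BMD MLCs against BMD macrophages 7 were higher and 1 lower: Cd38 (7.48), Gpr171 (6.22), Gpr82 (4.89), Nt5e (4.66), P2rx1 (3.48), Lpar6 (2.24) and Adora3 (2.13), and the UTP receptor gene P2ry2 (-5.65). In ER-Hoxb8 cells 6 were higher, namely Gpr171 (6.26), Adora3 (5.16), Nt5e (3.69), Adora1 (3.63), Cd38 (2.88) and Pnp (2.22), and 2 lower, P2ry2 (-6.00) and Slc29a1 (-4.14). Nt5e encodes CD73, the step after CD39 that makes adenosine, and it was also above microglia in BMD MLCs (4.96) and ER-Hoxb8 MLCs (4.24). Cd38 and Gpr171 were likewise above microglia in both, by 6.54 and 5.21 in BMD MLCs and by 4.40 and 4.22 in ER-Hoxb8 MLCs. The adenosine receptor gene Adora3 (-4.51 and -2.50) and the channel gene P2rx1 (-3.26 and -2.38) were below microglia in both. The remaining calls against microglia were Pnp (-2.22) for BMD MLCs and Ada (2.08), Enpp1 (-2.05) and Slc29a1 (-2.21) for ER-Hoxb8 MLCs. Between the MLC groups, Adora1 (2.25) and Adora3 (2.01) were higher and Enpp1 (-3.41), Entpd4 (-3.32) and Cd38 (-2.14) lower in ER-Hoxb8 MLCs. The change in brain differed between the cell types for Cd38 (-4.60), P2rx1 (-3.57), Entpd4 (-2.86), Adora3 (3.04) and Pnp (2.01). Without ER-Hoxb8 macrophage replicate 3, Nt5e (3.17, adjusted p 0.0539) and Pnp (1.81) were no longer called between ER-Hoxb8 MLCs and their macrophages, nor Adora3 (2.37, adjusted p 0.14) and Pnp (1.60, adjusted p 0.0613) in the difference of changes. Ada was 1.52 without microglia replicate 8, and Adora3 between MLC groups 1.82 without ER-Hoxb8 MLC replicate 6, each under the fold limit. Between both kinds of cultured macrophage, 1 of 19 such genes tested was called, P2ry1, lower in ER-Hoxb8 macrophages (-4.66). Without ER-Hoxb8 macrophage replicate 3, P2ry1 was no longer called by limma (-4.76, adjusted p 0.0586).

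Genes beside the members were read as well. Med12l, whose span holds P2ry12, P2ry13 and P2ry14, was higher in brain by 5.17 in marrow cells and 2.46 in ER-Hoxb8 cells and below microglia by limma (-2.93 and -2.45), and its change differed between the cell types (-2.71, adjusted p 0.028). Gpr171, in the same span, was also higher in brain but stood above microglia, as given above. Gpr82 and Cask, which surround Gpr34 on chromosome X, were called only in BMD MLCs against BMD macrophages within the brain set (4.89 and 2.91). Over the 27 libraries, which fall into separate groups, the genes most like P2ry12 by Pearson r were Siglech (0.988) and Olfml3 (0.977). Among those most like Gpr34 were Ramp1 (0.950) and Gm15539 (0.945), and most like P2ry13 were Usp2 (0.967), St3gal6 (0.954) and P2ry12 itself (0.951). P2ry14 was most like Aoah (0.911), Sp100 (0.901) and Trps1 (0.886), and P2rx4 most like Mapkapk3 (0.929), Tmem80 (0.924) and Plxnd1 (0.910). For P2ry6 they were Fgd2 (0.926), Arrb2 (0.870) and Dusp6 (0.870), for P2rx7 Elf2 (0.891), C030017K20Rik (0.873) and Abhd15 (0.863), and for Entpd1 Nfkb1 (0.844), Lgmn (0.836) and Il1a (0.832). P2ry12 and P2rx4 had r of -0.733. These r values describe differences between groups and carry no test.

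In marrow, monocytes were compared with progenitors to see which members come with the first step toward macrophages. P2rx7 was 2.95, 3.36 and 3.62 log2 CPM in progenitors and 6.28, 5.91 and 5.55 in monocytes. P2ry6 was 0.93, 2.04 and 1.55 in progenitors and 4.96, 5.22 and 4.56 in monocytes. Both were higher in every monocyte library than in every progenitor library, yet neither passed by limma, at 2.60 ± 0.81 (adjusted p 0.0548) and 3.40 ± 1.27 (adjusted p 0.0967). With quantile normalization both were called, P2rx7 at 2.76 (adjusted p 0.0242) and P2ry6 at 3.94 (adjusted p 0.0365), and P2rx7 also with log2(CPM + 1) (2.49, adjusted p 0.0423) and with a replicate block (adjusted p 0.0427). Called were 0 of 8 members, 2 at an unadjusted p under 0.05, beside 6.84% of 12056 genes. P2ry12 was 4.61, 4.21 and -0.79 in monocytes against 0.85, 2.20 and 2.56, with replicate 3 below all progenitors. P2ry14 went the other way, at 1.45, 1.31 and 1.71 against 2.75, 2.43 and 2.65 (-1.12 ± 0.65, adjusted p 0.271). Of 25 other purinergic genes tested, 1 was called, Adora2b (2.73), and Camkk2, the neighbour of P2rx4 and P2rx7, was higher by 2.15 (adjusted p 0.0144). Genes raised by dissociation summed to 10, 143 and 109 CPM in progenitors and to 56.2, 1554 and 1185 in monocytes. Lymphocyte genes summed to 259 to 859 CPM in progenitors and 76.2 to 144 in monocytes. The part of these genes was not tested.

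ER-Hoxb8 progenitors differed from marrow progenitors in 2 of 8 members, beside 15.3% of genes. P2ry12 was -4.34, -1.73 and -3.75 in ER-Hoxb8 progenitors, with replicate 1 at the lowest value, and below every marrow progenitor (-5.15 ± 1.23, adjusted p 0.00954). This call was lost with log2(CPM + 1) (-2.12, adjusted p 0.0816) and with no filter (adjusted p 0.0505), and P2ry12 was not tested with a mean CPM above 5. P2ry14 was 6.44, 3.50 and 4.99, above every marrow progenitor (2.37 ± 0.65, adjusted p 0.0197). P2ry14 was no longer called with no filter (adjusted p 0.0758) or without marrow progenitor replicate 1 (adjusted p 0.0513), 2 (0.0647) or 3 (0.0587) or ER-Hoxb8 progenitor replicate 1 (1.64, adjusted p 0.0717). Without ER-Hoxb8 progenitor replicate 3, whose P2rx7 was 1.89 where the other 2 had 5.16 and 6.12, 5 members were called, adding P2rx4 (2.56), P2rx7 (2.33) and P2ry6 (3.31), beside 19.8% of genes. That leaves replicate 2, the library most like day 4 cells, as 1 of 2; with replicate 2 left out instead, P2rx4 differed by 0.75, P2rx7 by 0.21 and P2ry6 by -0.15, and none passed. Of 25 other purinergic genes 3 were higher, P2ry2 (3.08), Adora2b (2.48) and Entpd4 (2.15), and 5 lower, Adora2a (-6.50), P2ry10 (-5.58), P2ry1 (-5.50), Gpr174 (-5.40) and Gpr171 (-4.51). All 8 stayed called without ER-Hoxb8 progenitor replicate 2, with Gpr171 at -3.07. Genes of other cells differed too: lymphocyte genes summed to 259, 859 and 720 CPM in marrow progenitors and to at most 0.799 in ER-Hoxb8 progenitors, and neutrophil genes to 6533 to 22454 against 46.2 to 2771, and their part was not tested.

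Differentiation over 4 days was compared with the start in the ER-Hoxb8 lines. P2ry6 was 2.17, 7.46 and 0.54 at the start and 7.44, 7.51 and 7.61 on day 4, so replicate 2 at the start lay within the later values. P2ry14 was 6.44, 3.50 and 4.99 and then 2.99, 3.71 and 1.82, overlapping only through that replicate. Limma called 0 of 8 members and 0% of 12056 genes, and 3 members passed at an unadjusted p under 0.05 (P2ry6, P2ry14 and P2ry12). This fit did not pair the libraries, although each was most like the same-numbered one of the other group (residual r 0.226 to 0.427). The block on replicate number that was tried also covered the marrow cells. Without ER-Hoxb8 progenitor replicate 2, the library most like day 4 cells, 6.12% of genes and 3 members were called: P2ry6 (6.16, adjusted p 2.74e-05), P2ry14 (-2.87, adjusted p 0.00875) and Gpr34 (2.37, adjusted p 0.0338). Entpd1 was 6.34, 6.01 and 0.95 on day 4, with replicate 3 far below the others.

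**Figure D2:**
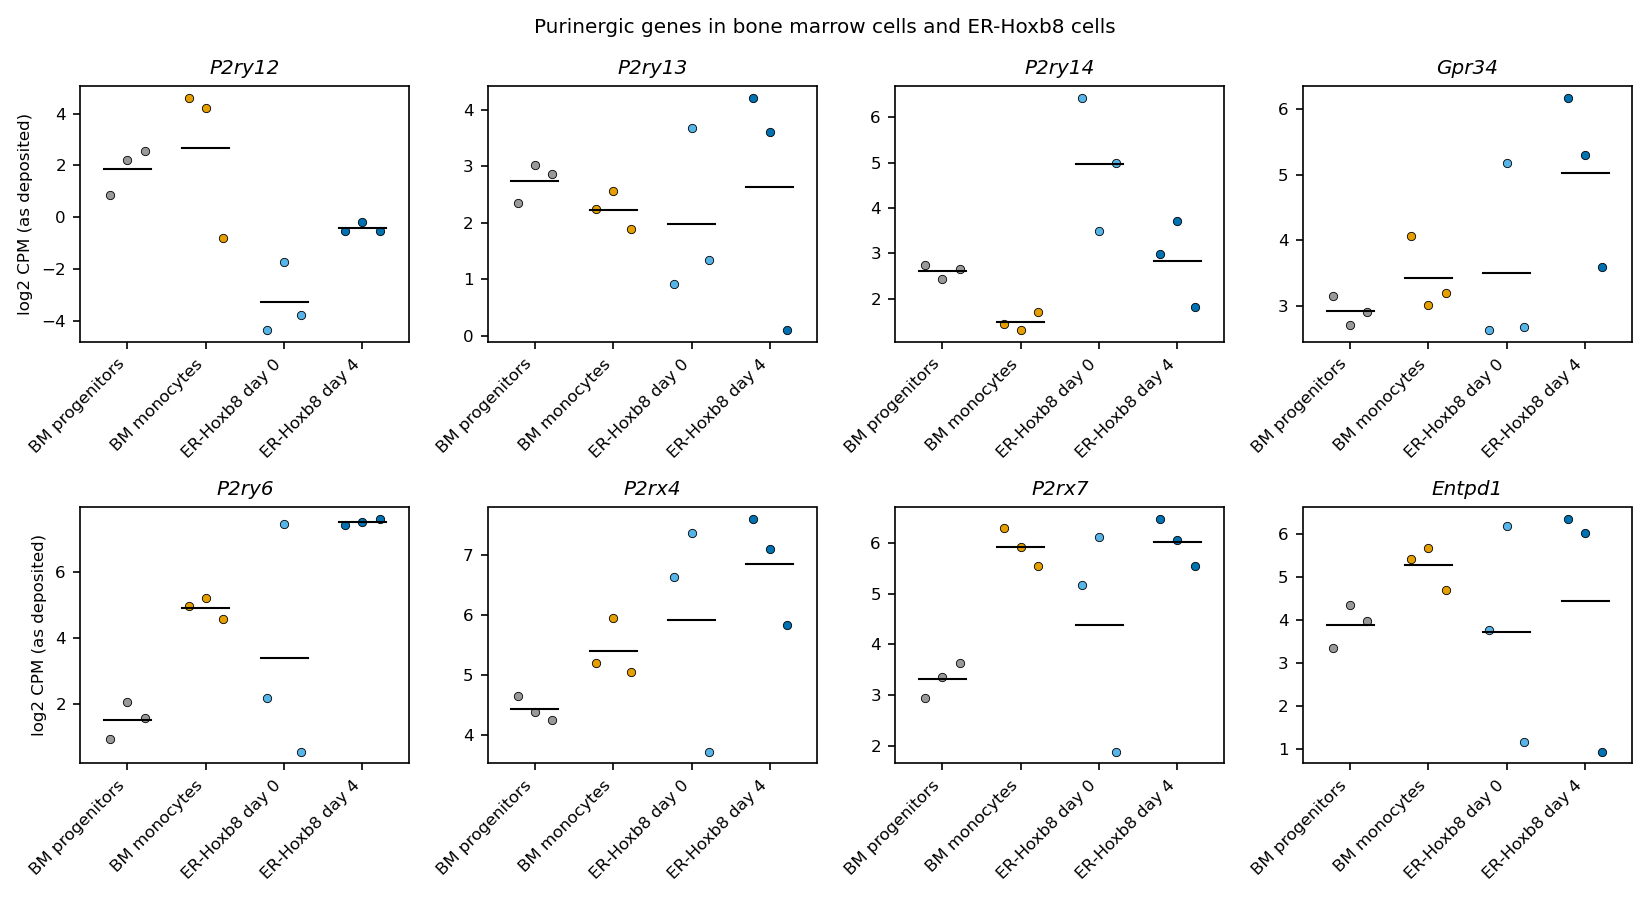
Log2 CPM as deposited of the 8 genes in 12 libraries of marrow progenitors, marrow monocytes and ER-Hoxb8 cells at the start and on day 4; a point is a library and a bar the group mean. For P2ry6, 1 starting ER-Hoxb8 library at 7.46 sits with the day 4 libraries at 7.44 to 7.61.

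The NTC lines show differentiation from progenitor to macrophage in cells that carry a non-targeting guide. P2ry6 was 0.09, 0.26 and 0.06 in NTC progenitors and 8.00 and 8.00 in macrophage replicates 1 and 3, the largest member difference there at 7.86 ± 0.20 (adjusted p 7.55e-11). Entpd1 was 1.77, 1.80 and 1.38 in progenitors and 6.55 and 6.25 in macrophages (4.75 ± 0.21, adjusted p 3.06e-09). In all, 6 of 8 members were called, each higher in macrophages, beside 23.5% of 11008 genes, and the median log2 difference was 3.72 for members and -0.08 for all genes. The other 4 were Gpr34 (3.86), P2rx4 (3.76), P2rx7 (3.69) and P2ry12 (3.29, or 2.04 with log2(CPM + 1)). P2ry13 was higher by 1.81 (adjusted p 0.0088) and P2ry14 lower by limma (-1.87, adjusted p 0.000477), both under the fold limit. Without NTC macrophage replicate 3 these were 2.01 and -2.05 and all 8 were called, without NTC progenitor replicate 1 P2ry13 was 2.21, and without NTC progenitor replicate 3 P2ry14 was -2.17. Among 18 other purinergic genes 3 were higher, Adora3 (3.89), Lpar6 (3.48) and Slc29a3 (2.62), and 3 lower, Gpr171 (-3.63), Adora2b (-2.95) and Entpd4 (-2.55).

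Loss of Adar1 was compared with NTC at both stages. In progenitors limma called 0 of 8 members, beside 0.254% of genes; 1 passed at an unadjusted p under 0.05, Entpd1, at 0.98, 0.66 and 0.86 with sgRNA 1 against 1.77, 1.80 and 1.38 with NTC (-0.81 ± 0.18, adjusted p 0.0884). The other 7 differed by -0.27 (P2ry14) to 0.71 (P2ry12). In macrophages 1 of 8 was called, beside 4.02% of genes. That was P2ry14, at 4.40, 3.80 and 3.69 with sgRNA 1 and 1.25 and 1.60 with NTC, all sgRNA 1 values being higher (2.53 ± 0.35, adjusted p 0.000325). NTC macrophage replicate 2, normalized on its own, had 1.09. Entpd1 was 4.75, 4.38 and 4.43 with sgRNA 1, below the 6.55 and 6.25 of NTC (-1.88 ± 0.21, adjusted p 5.96e-05), and passed the fold limit without NTC macrophage replicate 3 (-2.03). Gpr34 (-1.12, adjusted p 0.0107) and P2ry6 (-0.89, adjusted p 0.00779) were also lower by limma, under the fold limit. P2ry13 was 4.86, 3.18 and 3.09 with sgRNA 1, above the 2.62 and 2.22 of NTC, and did not pass (1.29 ± 0.53, adjusted p 0.104). P2ry12 (0.13), P2rx4 (-0.08) and P2rx7 (-0.30) did not pass either. Quantile normalization moved the median of all genes by -0.10 here and left P2ry14 called. The CD73 gene Nt5e was the 1 call among 18 other purinergic genes (4.45). The 8 interferon-stimulated genes summed to 3181 to 7052 CPM with sgRNA 1 and 82.1 and 93.1 in the 2 NTC libraries of the set. Genes of border-associated macrophages were lower with sgRNA 1, at 848 to 922 against 2542 and 3002 CPM, and monocyte genes higher, at 494 to 1425 against 234 and 289; at 0 uM in the drug series these were 584 to 873 against 1450 to 1729 and 431 to 539 against 274 to 327. The part of these genes in these values was not tested.

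The sgRNA 2 libraries have no NTC libraries in their set, so only macrophages against their own progenitors were tested, and guide and set cannot be told apart. P2ry14 was 4.02, 4.12, 3.96, 3.58 and 3.99 in macrophages and 1.99, 1.79 and -1.24 in progenitors, all macrophages being higher (3.09 ± 0.62, adjusted p 0.000943). Without progenitor replicate 3, at -1.24, the P2ry14 difference was 2.05 (adjusted p 2.91e-06), near the fold limit. In NTC cells P2ry14 had been lower in macrophages than in progenitors; the difference between these changes was not tested. P2ry6 was 6.32 to 6.51 in macrophages against 1.17, 0.32 and 0.57 (5.76 ± 0.16, adjusted p 2.51e-10), and P2rx4 7.89 to 8.42 against 3.78, 3.65 and 4.08 (4.28 ± 0.12, adjusted p 2.51e-10). These 3 of 8 members were called, beside 19.3% of 10698 genes. Higher in macrophages but under the fold limit were P2rx7 (1.69, adjusted p 5.03e-08), Entpd1 (1.57, adjusted p 1.62e-05), Gpr34 (0.90, adjusted p 8.06e-06) and P2ry13 (0.53, adjusted p 0.000619). P2ry12 was 3.59 to 4.45 in macrophages and 2.96 to 3.83 in progenitors, groups that overlapped (0.54 ± 0.23, adjusted p 0.0541). Other purinergic genes called higher were Cd38 (2.75), Nt5e (2.48), Panx1 (2.38) and Slc29a3 (2.15), and lower Adora2b (-3.71), Adk (-2.13), Entpd4 (-2.09) and Ada (-2.01).

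**Figure D3:**
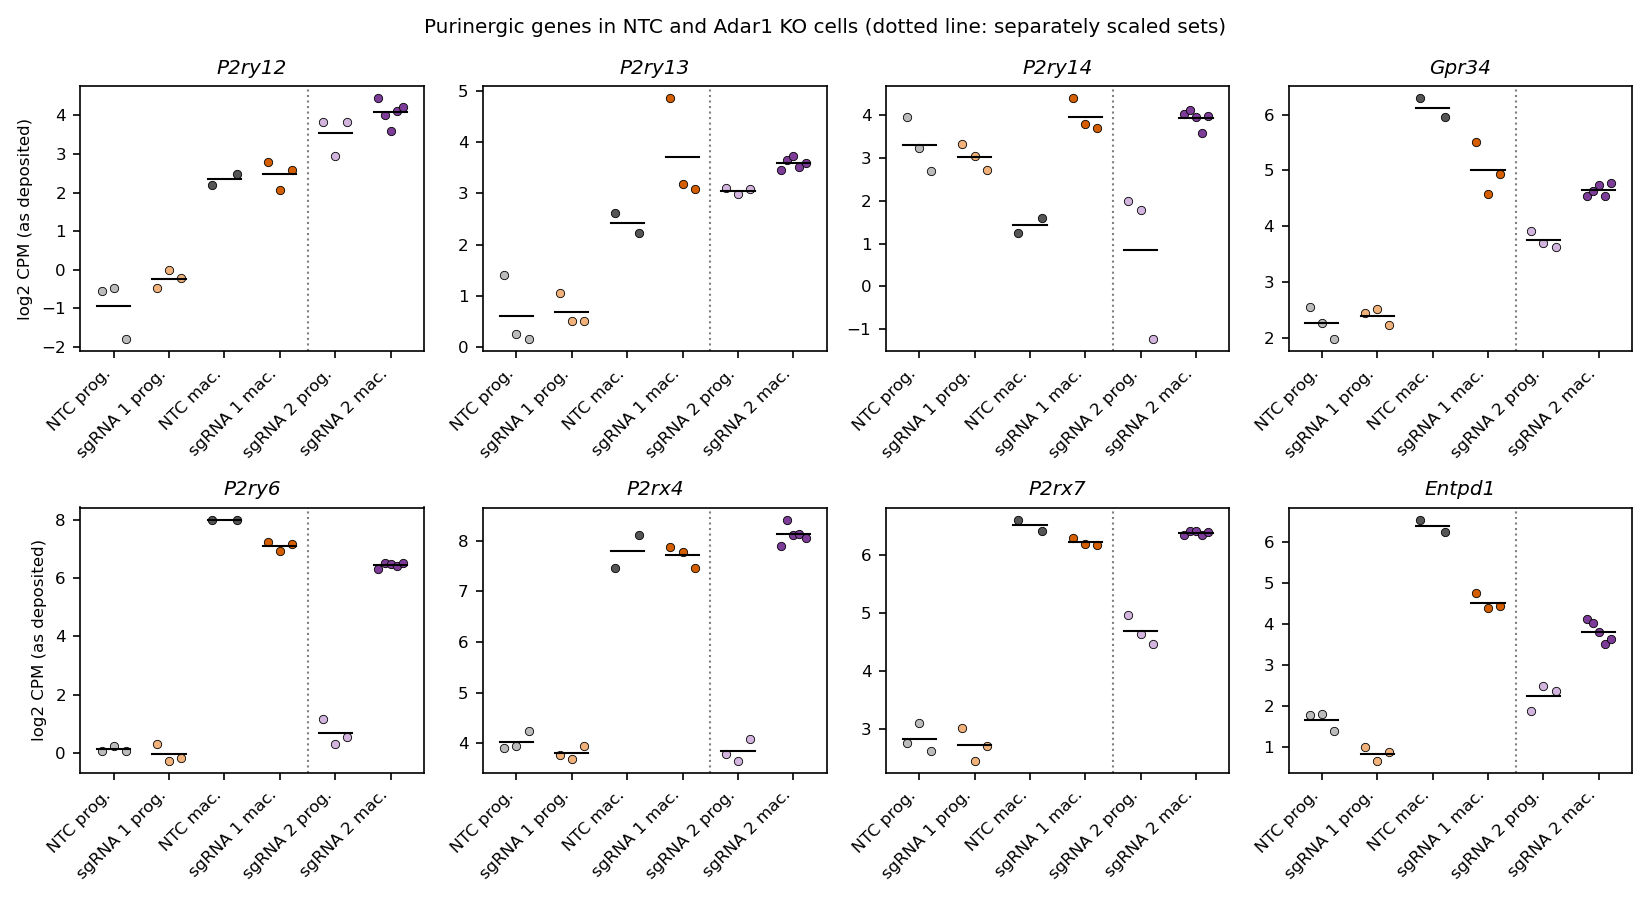
Log2 CPM as deposited of the 8 genes in NTC, sgRNA 1 and sgRNA 2 progenitors and macrophages; a point is a library, a bar the group mean, and a dotted line separates the sgRNA 2 set, whose levels are normalized apart. P2ry14 macrophage values are 1.25 and 1.60 with NTC and 3.69 to 4.40 with sgRNA 1.

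The baricitinib series was fitted as 33 libraries together. Without drug, P2ry14 was 3.95, 3.02 and 3.92 in Adar1 KO macrophages and 0.90, -0.52 and -0.27 in NTC. P2ry13 was 3.12, 3.64 and 3.88 in Adar1 KO and 0.64, 0.85 and 0.57 in NTC, and Entpd1 5.28, 4.76 and 4.84 against 2.30, 1.69 and 1.06. For all 3 genes every knockout library was above every NTC library. Called at 0 uM were these 3 of 8 members, all higher in the knockout, beside 3.87% of 11152 genes: P2ry14 (3.59 ± 0.77, adjusted p 0.000943), P2ry13 (2.86 ± 0.52, adjusted p 0.000141) and Entpd1 (3.28 ± 0.46, adjusted p 4.62e-06). In the separately sequenced set above, Entpd1 had been lower in sgRNA 1 than in NTC macrophages, with NTC values of 6.25 to 6.55, so its direction differed between the sets; the difference between them was not tested and set and culture cannot be told apart. The proliferation genes Mki67 and Top2a also turned, summing to 88.6 to 91.5 CPM with sgRNA 1 and at most 17.8 with NTC in the earlier set, but to 65.7 to 89 in the knockout and 262 to 384 in NTC at 0 uM. P2ry14 was called higher in the knockout in both sets, and P2ry13 only in the drug series.

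At 0.0006 uM the same 3 members were called, beside 5.00% of genes. P2ry14 was 3.59, 4.14 and 3.86 in the knockout and -2.78, 0.47 and 1.08 in NTC, where the first is the lowest value (4.27, adjusted p 0.000105). Entpd1 was 5.06, 4.74 and 4.07 against 1.69, 2.03 and 2.54 (2.54, adjusted p 0.000106), and P2ry13 differed by 2.93 (adjusted p 8.36e-05). At 0.016 uM 2 members were called, beside 5.12%: P2ry14 (3.91, adjusted p 0.000108) and P2ry13 (3.23, adjusted p 7.89e-06). Entpd1 was then 3.54, 3.79 and 4.29 in the knockout and 2.75, 2.08, 1.77 and 2.38 in NTC, still apart but under the fold limit (1.63, adjusted p 0.00399).

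At 0.4 uM P2ry14 depended on 1 library. It was 0.62, 4.86 and 1.53 in the knockout and -0.52, -0.10, -0.89 and 0.20 in NTC, replicate 2 of the knockout being the one with 17401 CPM of interferon-stimulated genes, above the 2125 to 2995 of the knockout at lower doses. With it, 2 of 8 members were called beside 1.78% of genes, P2ry14 (2.66, adjusted p 0.0143) and P2ry13 (3.10, adjusted p 5.94e-05). Without it, P2ry14 differed by 1.40 (adjusted p 0.213) and P2ry13 by 2.15 (adjusted p 0.000542), and 1 member (P2ry13) and 0.988% of genes were called. With all libraries, the P2ry14 call was also lost with no filter (adjusted p 0.056) and with log2(CPM + 1) (1.95). P2ry13 was 3.43, 5.96 and 2.79 in the knockout against 0.47, 1.13, 1.53 and 0.71, above NTC in every library. Entpd1 at 1.17, 1.86 and 1.05 now lay within the NTC values of 0.94, 1.86, 0.01 and 2.26 (0.09 ± 0.43, adjusted p 0.92).

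At 10 uM limma called 0 of 8 members between knockout and NTC, beside 3.14% of genes; 3 passed at an unadjusted p under 0.05. P2ry14 was 1.23, 1.00, 0.66 and 1.02 in the knockout and -1.13, 0.21 and -0.28 in NTC, apart but not called (1.38 ± 0.72, adjusted p 0.12). Gpr34 was 7.43, 7.29, 6.70 and 6.95 against 5.27, 5.46 and 4.87, all knockout libraries being higher (1.89 ± 0.29, adjusted p 6.09e-06). It passed the fold limit without NTC 10 uM replicate 2 (2.02) or knockout 10 uM replicate 3 (2.02). P2ry13 differed by 1.59 (adjusted p 0.00836) and P2ry6 by -0.64 (adjusted p 0.000412).

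Within each genotype, 10 uM was then compared with no drug. In NTC, P2ry13 was the 1 of 8 members called, beside 0.834% of genes. It was 0.64, 0.85 and 0.57 without drug and 3.35, 3.78 and 2.48 with it, every treated library being higher (2.51 ± 0.52, adjusted p 0.00181). In the knockout 3 of 8 were called, beside 14.7%. Entpd1 went from 5.28, 4.76 and 4.84 to 2.99, 2.22, 2.36 and 2.35 (-2.48 ± 0.43, adjusted p 1.14e-05), and P2ry14 from 3.95, 3.02 and 3.92 to 1.23, 1.00, 0.66 and 1.02 (-2.65 ± 0.72, adjusted p 0.00203). For both, treated and untreated libraries did not overlap. P2ry12 was -2.78, 0.12 and -0.31 without drug and 2.40, 3.19, 0.61 and 2.26 with it (3.10 ± 1.04, adjusted p 0.0107); without untreated replicate 1, which is at the lowest value, it was 2.21 (adjusted p 0.0988), and with log2(CPM + 1) 1.86, under the fold limit. P2ry13 in the knockout was 4.77, 4.88, 4.86 and 4.65 with drug, above its 3 untreated libraries (1.25 ± 0.48, adjusted p 0.0252).

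The difference between the drug effects was tested too. Entpd1 was the 1 of 8 members called, at -2.45 ± 0.63 (adjusted p 0.00287), beside 7.11% of genes, its drug effect being more negative in the knockout. P2rx7 differed by -0.54 ± 0.16 (adjusted p 0.00893), under the fold limit. For P2ry14 the difference was -2.21 ± 1.05 (adjusted p 0.0962) and for P2ry13 -1.27 ± 0.71 (adjusted p 0.157), neither passing. Summed interferon-stimulated genes in the knockout were 2368 to 2537 CPM without drug and 7.26 to 10 at 10 uM. Proliferation genes there were 65.7 to 89 and then 1172 to 1898, and border-associated macrophage genes 584 to 873 and then 1993 to 2515. Monocyte genes were 431 to 539 and then 110 to 156, and dissociation genes 371 to 400 and then 74.9 to 95. In NTC cells interferon-stimulated genes went from a range of 35.3 to 46.4 without drug to one of 5.06 to 7.24 at 10 uM. Proliferation genes in NTC were 262 to 384 and then 620 to 960, and border-associated macrophage genes 1450 to 1729 and then 2446 to 2642. Monocyte genes in NTC were 274 to 327 and then 112 to 138, and dissociation genes 436 to 492 and then 178 to 209. The part of these genes in the member values was not tested. Adar RNA itself was 7.42, 6.52 and 6.37 in untreated knockout cells and 1.55, 2.15, 2.91 and 2.03 at 10 uM (-4.61 ± 0.45, adjusted p 8.68e-10 by limma). The matching NTC levels are not given here, so this fall is not shown to be particular to the knockout.

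P2ry6, P2rx7 and P2rx4 were called in no comparison of the drug series. P2ry6 ranged from 6.97 to 8.01 and P2rx7 from 5.67 to 6.47 over the 33 libraries. P2rx4 ranged from 5.66 to 7.87 and was higher in the knockout by 0.81 at 0 uM (adjusted p 0.0168) and 1.26 at 0.0006 uM (adjusted p 0.000338). Of 18 other purinergic genes, 0 were called at 0 uM, P2rx1 at 0.0006 uM (2.19), P2rx1 (2.81), Nt5e (3.02) and Gpr82 (2.08) at 0.016 uM, P2rx1 (2.04) and Nt5e (2.45) at 0.4 uM (2.05 and 2.05 without knockout replicate 2), and Gpr171 (2.72) and P2ry2 (-2.96) at 10 uM. The 10 uM dose itself called 0 of them in NTC cells and 5 in the knockout: Gpr171 (2.51), P2rx1 (-2.04), Entpd6 (-2.16), Slc29a3 (-2.93) and P2ry2 (-5.07). The drug effect differed between genotypes for P2ry2 (-4.15) and Slc29a3 (-2.29).

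**Figure D4:**
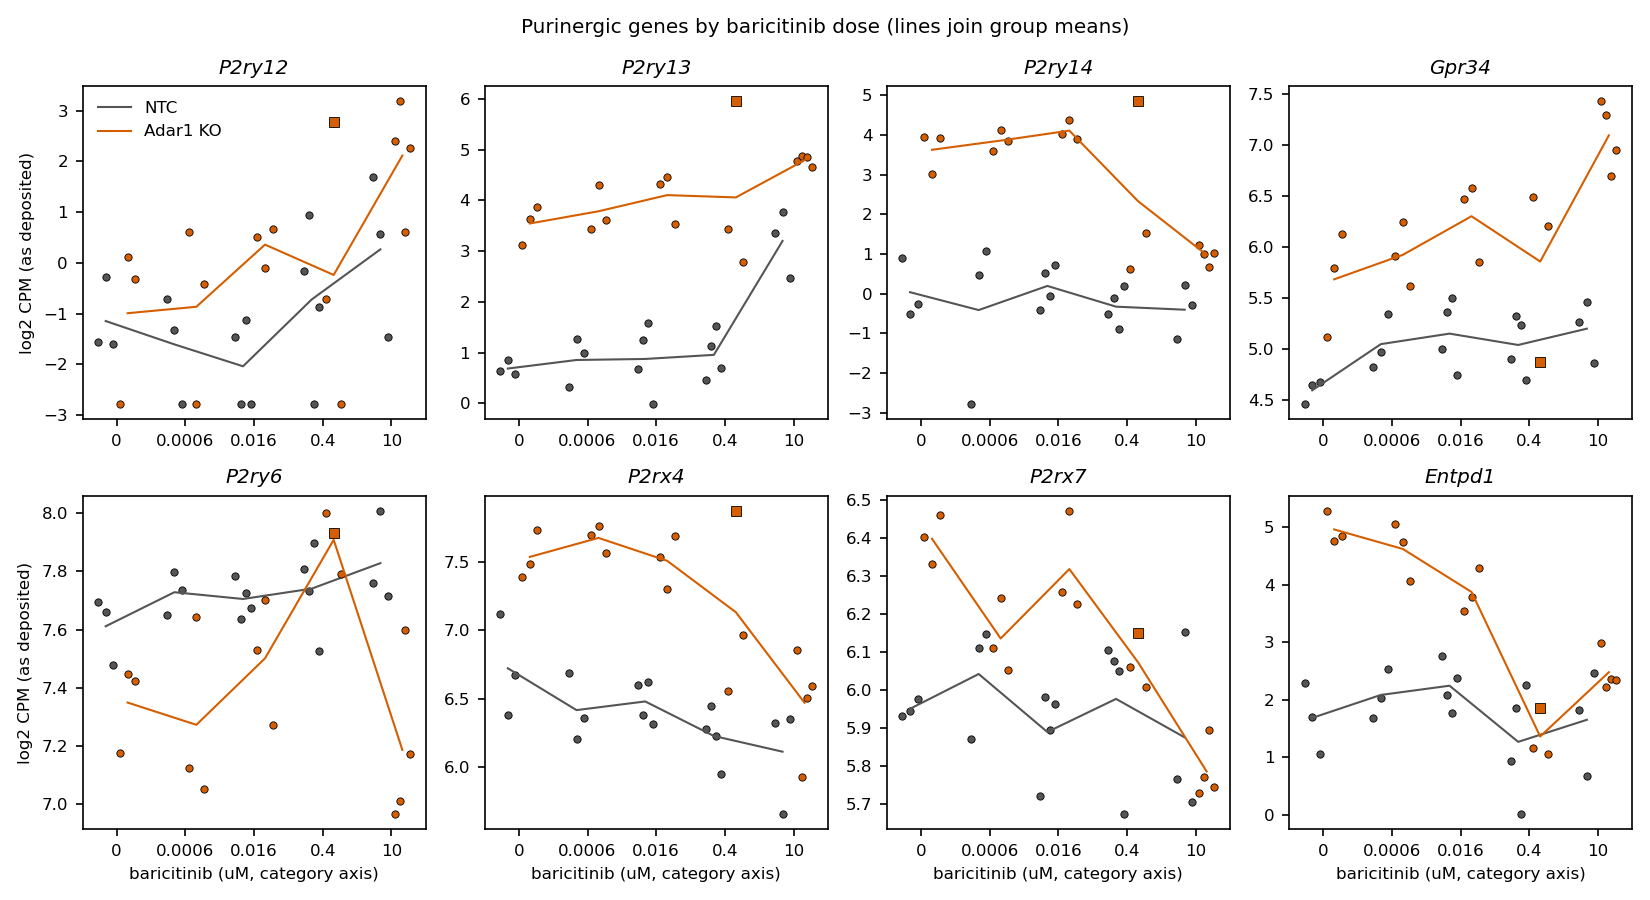
Log2 CPM as deposited of the 8 genes in 33 libraries by baricitinib dose in uM, spaced as categories; points are libraries, lines join group means of NTC and Adar1 KO, and a square marks Adar1 KO at 0.4 uM replicate 2. Entpd1 in the knockout lies between 4.76 and 5.28 without drug and between 2.22 and 2.99 at 10 uM.

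**Figure D5:**
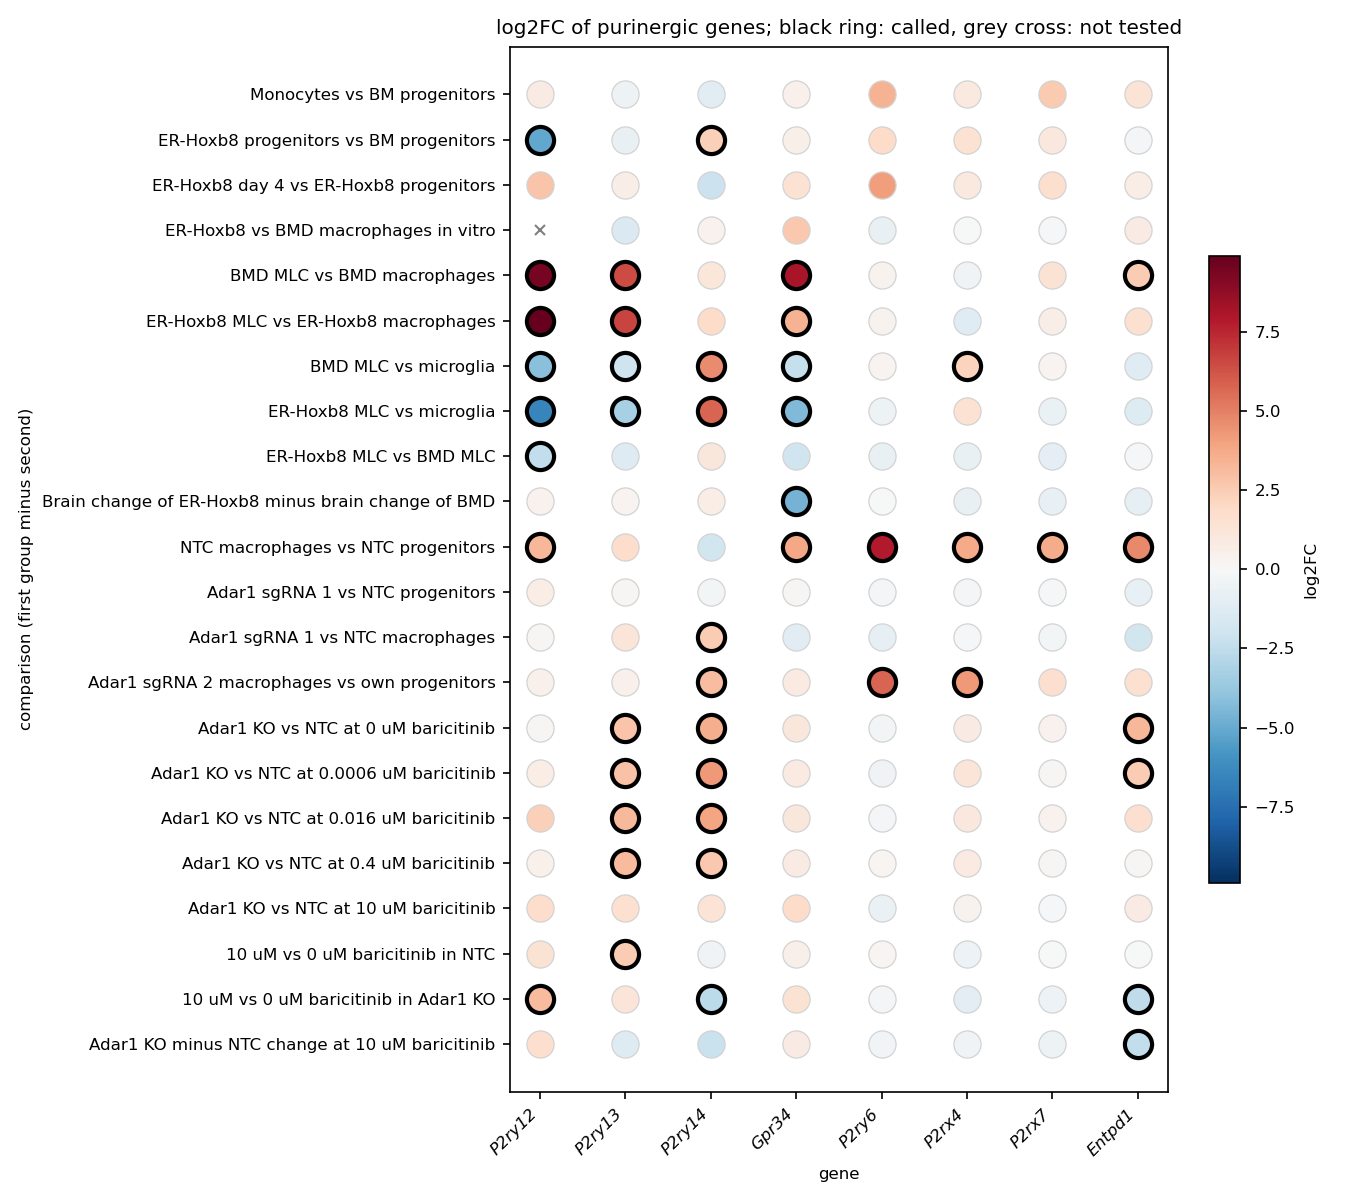
Log2 differences of the 8 genes (columns) in 22 comparisons (rows), coloured on a scale symmetric about 0; a black ring marks a gene that was called and a grey cross one that was not tested. P2ry14 is called higher in each MLC group against microglia (4.67 and 5.78) while P2ry12, P2ry13 and Gpr34 are called lower.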

How the data were processed

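Bulk RNA was measured in 92 libraries. The authors quantified reads with kallisto on a mouse transcriptome, and the deposited table holds TMM-normalized log2 CPM with a small offset, computed by the authors with edgeR; counts were not used here. CPM was rebuilt as 2 to the power of the value minus 2 to the power of the lowest value. Depth assumes that the lowest value reflects a prior count of 2. The replicate columns were matched to groups by their titles, and 1 row without a gene name was left out. limma 3.58.1 (R 4.3.3) fitted 1 mean per group within each set of libraries that share a lowest value, with a trended variance, over all genes above 1 CPM in at least 3 libraries (6 in the brain set); the comparison of cultured macrophages was fitted on its 6 libraries alone. P-values were adjusted by Benjamini-Hochberg over all genes tested, for 22 comparisons. The 8 members were read in every comparison and are all drawn in the last image, while the text gives those its results turn on; it also names called genes of a list of 38 other purinergic and related genes, genome neighbours, and for each member up to 3 genes among those of highest Pearson r over 27 libraries. Members and lists were chosen with earlier results of these data known. In addition, 14 lists of 70 marker genes were summed by library. Python 3.11.15 with numpy 2.4.6, pandas 2.3.3 and matplotlib 3.10.9 made the summaries and figures. The calls were tested on simulated data, and the outcome of that test is not given here. Replicate numbers were checked as pairs: same-numbered libraries had residual r over 0.1 in every pair for ER-Hoxb8 day 4 against progenitors (0.226 to 0.427), sgRNA 1 against NTC progenitors (0.158 to 0.349) and sgRNA 1 against NTC macrophages (2 pairs, 0.153 and 0.158), and a block on the replicate number was tried. Alternatives were log2(CPM + 1), no filter, mean CPM above 5, quantile normalization, a fold limit of 1 or none, the block, single column series, the lone NTC library added, 1 fit of 5 groups, and each library left out in turn (97 fits).

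The data have limits. Levels cannot be compared between sets, and guide, culture and sequencing run cannot be told apart across them. Origin and transplantation cannot be told apart between MLCs and microglia. MLCs were sorted from Csf1r-/- hosts, and no microglia of such hosts were measured. Neutrophil genes were present in the sorted brain cells, and how far they diluted the 8 genes was not tested. RNA levels say nothing of receptor protein or signalling. Groups of 2 to 4 libraries leave wide errors, so a gene that was not called may still differ.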

Additional observations from a re-analysis of the deposited data

Results flagged for a closer look

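A library was checked for distance from the rest of its group in 56 combinations of a member and a group of at least 4 libraries, of which chance marks about 1 in 20, and 4 were found. P2ry6 was 6.91 log2 CPM in BMD MLC replicate 3 and 8.23 to 8.54 in the other libraries of that group, a gap of 0.812 of the range. In the same library P2rx4 was 6.92, where the others had 7.80 to 8.08 (0.760). P2rx7 was 6.30 in microglia replicate 8, the library with the highest astrocyte sum, and 7.21 to 8.07 in the others (0.516). P2rx7 was 5.675 in NTC at 0.4 uM replicate 4 and 6.05 to 6.11 in the others (0.872). Tests of a difference between effects passed for 3 genes. The change in brain differed between ER-Hoxb8 and marrow cells for Gpr34 (-4.65, adjusted p 0.0427). The effect of 10 uM baricitinib differed between Adar1 KO and NTC for P2rx7 (-0.54, adjusted p 0.00893) and for Entpd1 (-2.45, adjusted p 0.00287). The causes were not tested.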

How the results depend on the processing

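Counts of members called are given as chosen, then under the alternative. With log2(CPM + 1), Monocytes vs BM progenitors went from 0 to 1, ER-Hoxb8 progenitors vs BM progenitors from 2 to 1 and Adar1 KO vs NTC at 0.4 uM baricitinib from 2 to 1. With no filter, ER-Hoxb8 progenitors vs BM progenitors went from 2 to 0, ER-Hoxb8 MLC vs BMD MLC from 1 to 0, the Brain change of ER-Hoxb8 minus brain change of BMD from 1 to 0 and 0.4 uM from 2 to 1. With mean CPM above 5, ER-Hoxb8 progenitors vs BM progenitors went from 2 to 1. Quantile normalization moved Monocytes vs BM progenitors from 0 to 2 (P2rx7 and P2ry6), BMD MLC vs microglia from 5 to 3 and ER-Hoxb8 MLC vs BMD MLC from 1 to 2. A fold limit of 1 gave 3 instead of 1 for Adar1 sgRNA 1 vs NTC macrophages, 5 instead of 3 for Adar1 sgRNA 2 macrophages vs own progenitors, 5 instead of 2 at 0.016 uM, 2 instead of 0 at 10 uM and 6 instead of 3 for 10 uM vs 0 uM baricitinib in Adar1 KO. Shares of all genes at a fold limit of 1 are not given here, so these counts are not read as particular to the members. No fold limit gave 2 for ER-Hoxb8 MLC vs BMD MLC, 4 for sgRNA 1 vs NTC macrophages, 7 for sgRNA 2, 6 at 0 uM, 6 at 0.0006 uM, 6 at 0.016 uM, 3 at 10 uM, 7 for 10 uM vs 0 uM in Adar1 KO and 2 for the Adar1 KO minus NTC change at 10 uM. Adjusted p alone passed 1907 of 12518 genes in ER-Hoxb8 MLC vs BMD MLC, 2401 of 11008 for sgRNA 1 and 8699 of 10698 for sgRNA 2. Of 11152 genes in the drug series, 2816 passed at 0 uM, 3237 at 0.0006 uM, 3594 at 0.016 uM and 5055 at 10 uM. The dose in Adar1 KO passed 7341 and the difference of changes 4403. Most genes thus passed for sgRNA 2 and for the dose in Adar1 KO, so those counts are not particular to the members. The replicate block gave 1 for Monocytes vs BM progenitors (P2rx7), 0 for ER-Hoxb8 MLC vs BMD MLC and 0 for the brain change. GFPHox libraries alone gave 0 for ER-Hoxb8 MLC vs BMD MLC and 0 for the brain change, and WTHox libraries alone gave 2 for the former. Leaving out each library in turn, the count ranged from 1 (without BM progenitor replicate 1) to 5 (without ER-Hoxb8 progenitor replicate 3) for ER-Hoxb8 progenitors vs BM progenitors and from 0 to 3 (without ER-Hoxb8 progenitor replicate 2) for ER-Hoxb8 day 4 vs ER-Hoxb8 progenitors. It ranged from 0 to 1 for the brain change, 0 to 1 for ER-Hoxb8 MLC vs BMD MLC, 1 to 2 for sgRNA 1 vs NTC macrophages, 1 to 2 at 0.4 uM and 0 to 1 at 10 uM. In the other comparisons it stayed within 1.5 times the chosen count. Where a single NTC macrophage library remained, its variance was taken from the other groups. Of 749 alternative values of called members, 0 had the other sign and 58 were no longer called; of 2039 of uncalled members, 84 had the other sign and 73 were called.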
